A study of Mus musculus with 9 samples.

Results

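The cells described here are inhibitory neurons of the mouse central amygdala that carried transcripts of somatostatin (Sst) and lacked the 4 other transcripts used to divide this nucleus, namely Prkcd, Crh, Tac2 and Nts. They number 56 of 810 inhibitory neurons, out of 829 cells deposited. The cells were selected on measured counts: a cell was positive for a gene from 1 count per 10000 of all its counts upward, spike-ins excluded. Inhibitory neurons were positive for Gad1, Gad2 or Slc32a1 and negative for Slc17a6 and Slc17a7. The 56 cells, called Sst-only neurons below, were set beside 266 inhibitory neurons that were negative for all 5 markers. A second comparison used 69 Sst-positive, Prkcd-negative neurons that were also positive for Crh, Tac2 or Nts. Where a Prkcd class is mentioned, it holds the 289 neurons positive for Prkcd and negative for the other 4 markers. Because the choice of cells used Sst, Prkcd, Crh, Tac2, Nts and the inhibitory and excitatory markers, the levels of those genes are given as a description only.

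The study measured single-cell RNA expression in cells microdissected and dissociated from acute brain slices of B6 mice of wild-type genotype. All 9 samples form 1 group with no treatment, so comparisons run between classes of cell within a sample. The labels give no age, and each sample was a pool of cells over slices. Each sample carries 1 of 3 animal numbers and 1 of 3 date fields in the deposited cell table. No label says that the 9 samples are separate animals. The p-values below therefore reflect the spread among the samples, which may be technical.

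Somatostatin is a secreted peptide that acts on inhibitory G protein-coupled receptors, and its neurons form one of the large GABAergic populations of the central amygdala, where they have been studied in fear learning, pain and feeding. Many of these neurons package a second peptide, and corticotropin-releasing hormone (Crh), neurokinin B (Tac2) and neurotensin (Nts) are the partners that divide them most often. Dynorphin, made from the precursor prodynorphin (Pdyn), acts on kappa opioid receptors and is a further partner. Peptide precursors are cut in dense-core vesicles, and many of the products receive a C-terminal amide from the enzyme encoded by Pam.

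The promoter of Sst is shown because the defining transcript starts from it. The sequence is the 250 bases before the RefSeq start of Sst in build GRCm38.p6, on the minus strand at chr16:23890845-23891094, read 5′ to 3′. Capitals mark the palindrome TGACGTCA, the full cAMP response element through which this promoter is classically known to respond to cAMP. Its first base lies 48 bases before the start.

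Sst: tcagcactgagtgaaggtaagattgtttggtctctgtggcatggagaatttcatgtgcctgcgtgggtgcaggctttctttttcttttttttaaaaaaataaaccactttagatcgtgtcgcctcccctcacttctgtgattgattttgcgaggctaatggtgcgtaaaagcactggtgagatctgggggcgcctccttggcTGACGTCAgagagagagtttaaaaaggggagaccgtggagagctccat

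The same 8 letters, which read alike on both strands, stood in 508 of 32851 RefSeq promoter windows of this length, or 1.55%. They were not found in the windows before the 2 listed starts of Pdyn. A match is a description of letters, and these data hold no measurement of binding.

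Sst-only neurons were found in all 9 samples, at 10, 11, 4, 8, 8, 3, 9, 2 and 1 cells in samples 1 to 9. They made up 6.85% ± 4.09 (SD, n = 9) of the inhibitory neurons of a sample. The highest share was 11.96% in sample 2 (exact 95% binomial interval 6.12% to 20.4%) and the lowest was 1.19% in sample 9 (0.0301% to 6.46%). By animal number the shares were 9.93% (27 of 272), 7.75% (21 of 271) and 2.996% (8 of 267). By date field they were 8.93% (25 of 280), 6.83% (19 of 278) and 4.76% (12 of 252). Animal number 3 gave the lowest share within each of the 3 date fields, with 4, 3 and 1 cells. Each combination of animal number and date field holds 1 sample, so no test of these shares was made.

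**Figure D1:**
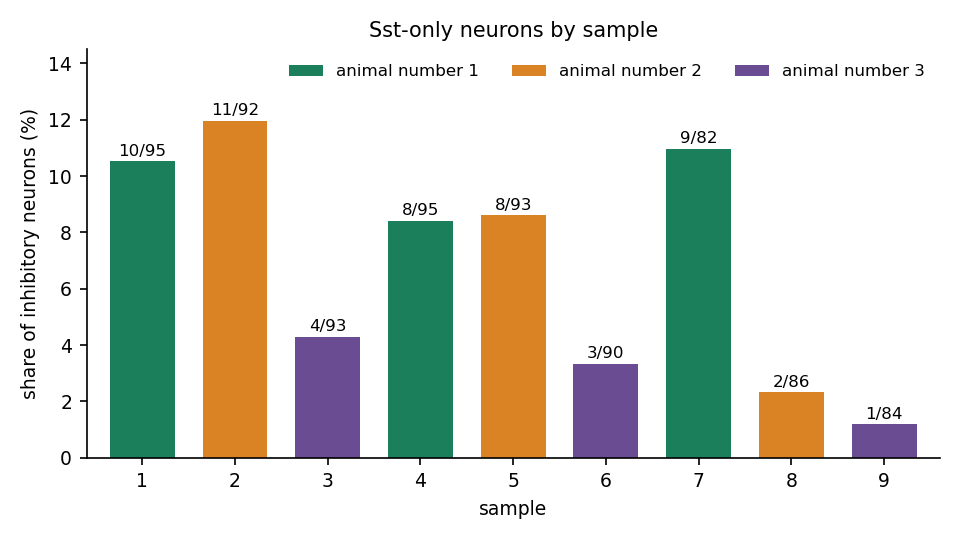
Share of inhibitory neurons that were Sst-only neurons, in percent on the y axis, for samples 1 to 9 on the x axis, coloured by animal number. Numbers above the bars are Sst-only neurons over inhibitory neurons. Samples 3, 6 and 9, of animal number 3, held 4, 3 and 1 such cells, and samples 8 and 9 held the fewest.

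Depth per cell was measured first. Sst-only neurons held a median of 122668 gene counts per cell and 4507 detected genes, against 126064 counts and 4494 genes in marker-negative neurons. Over the 7 samples with at least 3 cells of each class, the log2 ratio of the median counts was -0.07 ± 0.53 (SD, n = 7), and Sst-only neurons were higher in 2 (exact two-sided sign-flip permutation p = 0.781, smallest possible 0.0156). With every cell thinned to 74000 counts, median detected genes were 4228 and 4234 (difference -5.14 ± 645 (SD, n = 7), same exact test p = 0.969). This kept 51 Sst-only neurons and left out 5, and kept 240 marker-negative neurons and left out 26. Of the Sst-only neurons 2 held under 20000 counts. With 417 and 733 gene counts, these passed the Sst rule on 2 and 1 counts. The 9 samples held between 8522750 and 22730327 gene counts in all. Of 376 barcodes 368 occur in more than 1 sample, in 821 cells, yet all 829 cell names differ and no 2 cells hold the same counts.

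Markers of other cell types were checked in the same cells. Slc17a7, Slc17a6, Neurod6 and Tbr1, which mark excitatory neurons, had 0 counts in all 56 cells. C1qa, C1qb and Cx3cr1 of microglia and Aqp4, Gfap and Slc1a3 of astrocytes also had 0 counts, and 1 cell was positive for any of 5 astrocyte markers. Slc1a2, a glutamate transporter gene that astrocytes express strongly, was positive in 46.4% of Sst-only and 16.9% of marker-negative neurons. Its means were 155 and 52.2 CPM, higher in 6 of 7 samples (edgeR adjusted p = 0.489, DESeq2 0.00549). Among Sst-positive neurons with Crh, Tac2 or Nts 69.6% were positive for Slc1a2. In the 6 samples of the second comparison these averaged 268 CPM and Sst-only neurons 161 CPM. The part of Slc1a2 in the results below was not tested. At least 1 of 7 oligodendrocyte genes was positive in 19 of 56 Sst-only and in 92 of 266 marker-negative neurons. The summed level of these 7 genes ran from 0 to 178 CPM (counts per 1000000 counts of the sum) over the 7 samples in Sst-only neurons, with a median of 119. In marker-negative neurons it ran from 52.3 to 9897, with a median of 111, and the defining gene Mog was at 0 in the Sst-only neurons. No doublet caller was run.

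The level of Sst itself spanned a 286-fold range within the class, from 108 to 30713 CPM, with quartiles of 515 and 4658 and a median of 1867. Sst-positive neurons with Crh, Tac2 or Nts had a median of 3746 CPM. Marker-negative and Prkcd neurons had medians of 0. The 3 cells just inside the rule held 1.08, 1.08 and 1.09 Sst counts per 10000, on 10, 16 and 8 counts. The 3 marker-negative cells just outside it held 0.562, 0.508 and 0.492, on 11, 6 and 7 counts. The Sst-only neurons were not devoid of the transcripts used to exclude other cells: at least 1 count was seen for Prkcd in 14, for Crh in 8, for Tac2 in 18 and for Nts in 8 of the 56.

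The remaining markers attached to these cells held to different degrees. Pdyn was positive in 31 of 56 Sst-only neurons (55.4%). Cxcl14, a chemokine gene, was positive in 15 (26.8%). Npy, the gene of neuropeptide Y, was positive in 4 (7.14%) and is therefore no marker of the class as a whole. Among the 54 Sst-only neurons with at least 20000 counts, 3 were positive for Npy. In marker-negative neurons the shares were 11.3% for Pdyn, 2.63% for Cxcl14 and 1.88% for Npy. In Prkcd neurons, at a median of 119144 gene counts, Pdyn was positive in 1.73%. Cxcl14 and Npy were positive in 0 of 289 Prkcd neurons, which allows a share of up to 1.04%. At 74000 counts per cell Pdyn was positive in 56.9% of Sst-only and 10.4% of marker-negative neurons.

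**Figure D2:**
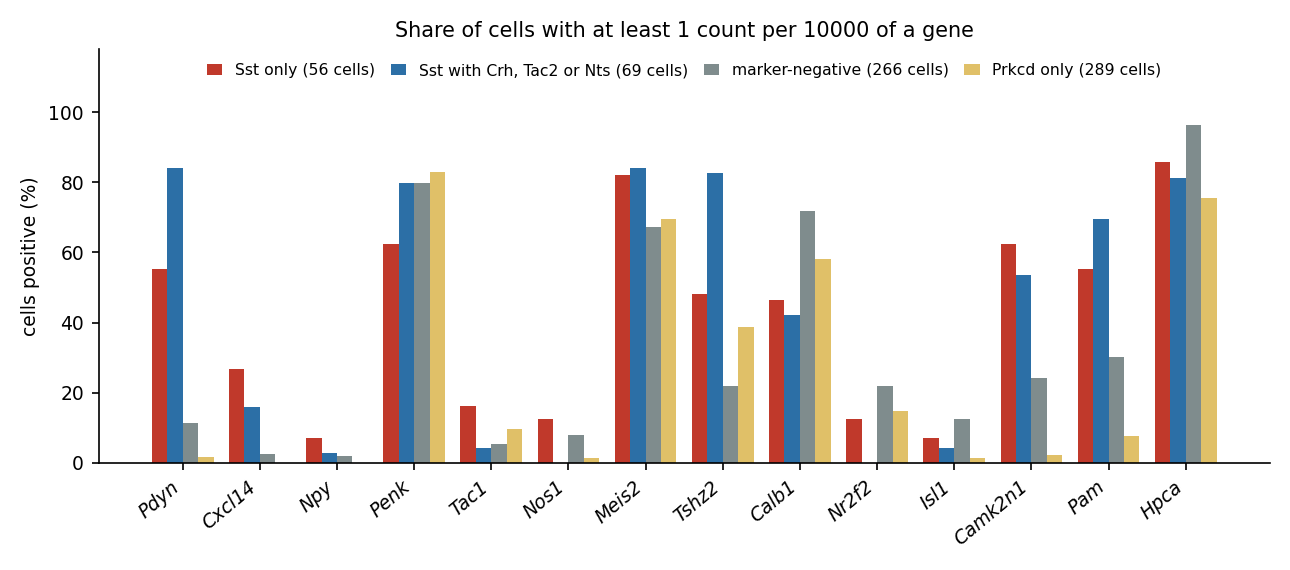
Share of cells, in percent on the y axis, with at least 1 count per 10000 of each gene on the x axis, in 56 Sst-only neurons, 69 Sst-positive neurons with Crh, Tac2 or Nts, 266 marker-negative neurons and 289 Prkcd neurons, each pooled over 9 samples. Pdyn stands at 55.4% in Sst-only, 84.1% in the other Sst neurons and 11.3% in marker-negative neurons, and Nr2f2 and Nos1 at 0% in the other Sst neurons.

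To find which genes set these neurons apart from marker-negative neurons of the same samples, counts were summed per sample and class. Pdyn, Gnas and Pam were higher in Sst-only neurons and Hpca was lower, and these were the only genes to pass. The 7 samples held 53 Sst-only and 197 marker-negative neurons, and 9618 genes outside the selection rule were tested with edgeR's quasi-likelihood test with the sample as a block (Benjamini-Hochberg adjusted p under 0.05). The 4 genes called, 3 higher and 1 lower, were 0.0416% of those tested, with 0.0312% higher and 0.0104% lower. DESeq2 called more, with 56 genes higher and 225 lower, and edgeR's unadjusted p was under 0.05 for 703 genes, of which 140 were higher and 563 lower. The median log2 fold change over all genes tested was -0.33, and every fold below is to be read against it.

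Pdyn encodes the dynorphin precursor. In Sst-only neurons it stood at 390 CPM in the lowest sample, 1413 in the median and 3151 in the highest, and in marker-negative neurons at 34.5, 58.6 and 214. The lowest Sst-only value was above the highest marker-negative value, and Pdyn was higher in 7 of 7 samples. The means were 1384 ± 924 and 81.5 ± 63.4 CPM (SD, n = 7), and the log2 fold change was 4.11 ± 0.32 (SE; edgeR adjusted p = 7.88e-05).

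Gnas encodes the stimulatory G protein subunit that couples receptors to adenylyl cyclase. Its lowest, median and highest values were 2370, 3253 and 5388 CPM in Sst-only and 1264, 1571 and 2005 in marker-negative neurons, so the groups did not overlap. Means were 3555 ± 944 and 1638 ± 292 CPM (SD, n = 7), a log2 fold change of 1.12 ± 0.10 (SE; edgeR adjusted p = 0.000206). The transcript was present in both classes: 100% of Sst-only and 92.1% of marker-negative neurons were positive, so this was a difference in level and not in presence. Gnas lies in a locus of overlapping and antisense transcripts, and no source used here gives the strand of counting. Reads of those transcripts therefore cannot be told apart from its own.

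Pam, whose enzyme amidates peptide hormones, ran from 88.2 through a median of 334 to 488 CPM in Sst-only and from 46.1 through 100.1 to 173 CPM in marker-negative neurons. Its ranges overlapped, but Pam was higher in each of the 7 samples. The means were 314 ± 131 and 105 ± 39.0 CPM (SD, n = 7), with a log2 fold change of 1.53 ± 0.22 (SE; edgeR adjusted p = 0.0339). The adjusted p was between 0.0601 and 0.197, and so no longer passed, when any 1 of samples 1 to 6 was left out and 0.0335 without sample 7, with log2 fold changes of 1.40 to 1.62. The call was also lost without the Sst-only neurons positive for Npy or Nos1 (log2 fold change 0.90, edgeR adjusted p = 0.481). That fit kept such cells among marker-negative neurons and ran on 6 samples. Without the cells of both classes positive for Mbp the call was lost in 7 samples (1.20, edgeR adjusted p = 0.464).

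Hpca encodes hippocalcin, a neuronal calcium sensor. It ran from 259 through 513 to 751 CPM in Sst-only neurons and from 791 through 1048 to 1234 CPM in marker-negative neurons. All 7 samples were lower in Sst-only neurons and the ranges did not meet. The means were 526 ± 193 and 1009 ± 159 CPM (SD, n = 7), and the log2 fold change was -0.99 ± 0.15 (SE; edgeR adjusted p = 0.0482). This call was lost when any 1 of the 7 samples was left out, with adjusted p between 0.0693 and 0.253. Pdyn and Gnas passed in all 7 such fits, with adjusted p up to 0.00179 and 0.00253.

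**Figure D3:**
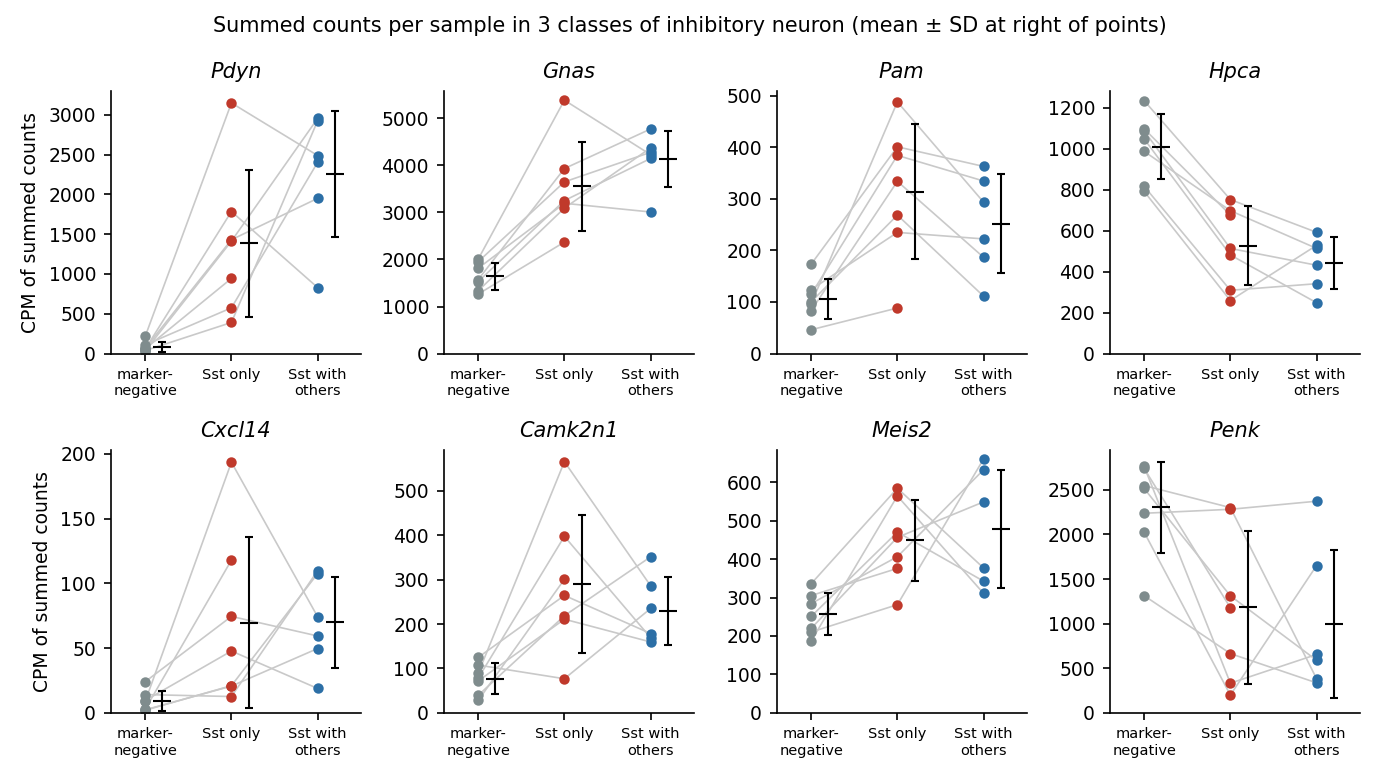
CPM of summed counts on the y axis for 8 genes in marker-negative, Sst-only and other Sst neurons (with Crh, Tac2 or Nts), 1 point per sample and class, grey lines joining classes of a sample, black bars the mean ± SD. Marker-negative and Sst-only points are the 7 samples of the first comparison and the last class the 6 of the second. The Sst-only and marker-negative points do not overlap for Pdyn, Gnas and Hpca.

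Among the other peptide genes none passed with edgeR. Of 16 neuropeptide precursor genes in the table outside the selection rule, 7 had enough counts to be tested, 1 was higher (Pdyn), and their median log2 fold change was -0.75. At an unadjusted p under 0.05, 2 were higher and 3 lower, and DESeq2 called Pdyn higher and Cck and Pnoc lower. Over all 9618 genes tested the counts were 140 higher and 563 lower, and 56 and 225 by DESeq2. Cxcl14 averaged 69.7 ± 66.1 CPM in Sst-only and 9.01 ± 8.01 CPM in marker-negative neurons (SD, n = 7) and was higher in 6 of 7 samples, with a log2 fold change of 2.95 ± 0.77 (SE; edgeR adjusted p = 0.486). DESeq2 gave Cxcl14 an adjusted p of 0.000333. Penk, which encodes the enkephalin precursor, stood at 198, 1179 and 2302 CPM (lowest, median, highest) against 1314, 2516 and 2764 CPM and was lower in 6 of 7 samples. Its log2 fold change was -1.30 ± 0.37 (SE; edgeR adjusted p = 0.552). Npy did not have enough counts in enough samples to be tested. In Sst-only neurons it was at 0 CPM in samples 1, 3 and 6, at 1.79 and 13.0 CPM in samples 4 and 7, and at 4589 and 14170 CPM in samples 2 and 5.

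The genes in this paragraph did not pass with edgeR and were picked after their values were seen, so their values are descriptions. Tac1, the precursor of substance P, had a mean of 817 CPM in Sst-only and 68.8 CPM in marker-negative neurons and was higher in 6 of 7 samples. Cck, the cholecystokinin precursor, had means of 21.9 and 148 CPM and was lower in 7 of 7. Pnoc, the nociceptin precursor, had means of 18.9 and 71.2 CPM and was also lower in 7 of 7. Camk2n1, an inhibitor of CaM kinase II, had means of 291 and 76.8 CPM, with a log2 fold change of 1.94 ± 0.41 (SE; edgeR adjusted p = 0.271). Of these 4 genes DESeq2 called Cck, Pnoc and Camk2n1. In the 6 samples of the second comparison Camk2n1 averaged 289 CPM in Sst-only and 230 CPM in the other Sst neurons.

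Transcription factor, channel and guidance genes were called by DESeq2 and not by edgeR. Of 43 forebrain inhibitory transcription factor genes in the table, 30 were tested and 0 passed by edgeR. The median log2 fold change of the 30 was -0.62. Their unadjusted p was under 0.05 for 5 higher and 7 lower, and DESeq2 called 4 and 5. Over all 9618 genes tested the counts were 140 and 563, and 56 and 225 by DESeq2. This list, chosen with earlier results of these data known, thus held larger shares than all genes. Meis2, a homeobox factor of the lateral ganglionic eminence lineage, had means of 449 ± 106 and 256 ± 54.6 CPM (SD, n = 7) and was higher in 7 of 7 samples (log2 fold change 0.82 ± 0.18, SE; edgeR adjusted p = 0.338). The forkhead factor Foxp1 was lower in 7 of 7, at means of 52.6 and 137 CPM (edgeR adjusted p = 0.496). The cation channel gene Trpc5 stood at 25.1 to 131 CPM in Sst-only and at 2.26 to 24.4 CPM in marker-negative neurons. The guidance gene Sema6d stood at 30.9 to 125 and at 3.43 to 24.4 CPM. Neither pair of ranges overlapped, but the adjusted p values were 0.552 and 0.482 with edgeR and 0.00193 and 0.000727 with DESeq2. In the 6 samples of the second comparison, Meis2, Foxp1, Trpc5 and Sema6d averaged 461, 51.9, 76.2 and 62.7 CPM in Sst-only neurons. Sst-positive neurons with Crh, Tac2 or Nts averaged 479, 37.6, 109 and 70.1 CPM, so these levels were not particular to Sst-only neurons.

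The remaining groups held few edgeR calls. Besides Pam, 13 of the 14 genes of peptide processing and granins did not pass, and the list's median log2 fold change was -0.03. In the list of calcium binding proteins and CaM kinase genes 24 were tested, Hpca was lower and 23 did not pass. By edgeR 0 genes passed in each of the lists of peptide receptors (12 tested), monoamine, acetylcholine and cannabinoid receptors (13), GABA synthesis and transport (7), GABA and glycine receptors (20), glutamate receptors (21), potassium channels (31), sodium, calcium, HCN and TRP channels (27) and oxidative phosphorylation subunits (28). At an unadjusted p under 0.05 these 8 lists held, of 159 genes tested, 5 with a higher and 6 with a lower value. DESeq2 called 1 higher and 3 lower. By edgeR 0 genes passed as well in the lists of medial eminence interneuron genes (6 tested), axon guidance (30), synaptic adhesion (34), cyclic nucleotide signalling (23), general neuron genes (19), immediate early genes (16), trophic factors and receptors (14) and striatal projection neuron genes (9). At an unadjusted p under 0.05 the latter lists held 13 of 151 genes in each direction, and DESeq2 called 7 higher and 5 lower. Over all 9618 genes tested the counts were 140 higher and 563 lower, and 56 and 225 by DESeq2. The latter lists thus held larger shares than all genes, but lists were chosen with earlier results of these data known. Simulated sums with known changes gave the power of the fit: 13% of genes changed 2-fold and 36% of genes changed 4-fold were recovered. A gene that did not pass is therefore not shown to be alike in both classes.

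The Sst-positive neurons with Crh, Tac2 or Nts share the defining transcript. In the comparison with them 0 of 8144 genes passed by edgeR in 6 samples, which held 44 and 53 cells (0% called). By edgeR 333 genes had an unadjusted p under 0.05, 113 higher and 220 lower, and DESeq2 called 28 higher and 42 lower. The self-test recovered 4% of 2-fold and 27% of 4-fold changes here, so only large differences could be seen. The median log2 fold change was -0.10.

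Pdyn did not pass between the 2 Sst classes in the fit with the low-count filter. It averaged 1458 ± 990 CPM in Sst-only neurons and 2260 ± 794 CPM in the others (SD, n = 6), was lower in 4 of 6 samples and had a log2 fold change of -0.84 ± 0.44 (SE; edgeR adjusted p = 0.999). With no low-count filter the value was -0.87 and passed (edgeR adjusted p = 0.00781). Positive cells made up 55.4% of Sst-only neurons and 84.1% of the others. Cxcl14 (61.6 ± 68.6 and 69.9 ± 35.1 CPM, SD, n = 6) and Penk (1182 ± 942 and 997 ± 828 CPM) each were higher in 3 of 6 samples. Npy was not tested here either, with means of 3127 and 77.8 CPM. The first rests on samples 2 and 5 and the second on sample 4, at 445 CPM. Gnas had means of 3752 and 4137 CPM and Hpca of 502 and 442 CPM, and the groups overlapped for both. Pam had means of 352 and 252 CPM and was higher in 6 of 6 samples, with overlapping ranges (edgeR adjusted p = 0.999). Cells positive for Pam made up 55.4% of Sst-only neurons and 69.6% of the others.

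The gene with the lowest p in this comparison was Nos1, which encodes the neuronal nitric oxide synthase. Its values in samples 1 to 6 were 13.9, 192, 60.3, 17.0, 545 and 153 CPM in Sst-only neurons and between 0 and 1.71 CPM in the other Sst neurons. All 6 samples were higher and the ranges did not overlap. The log2 fold change was 7.05 ± 0.96 (SE; edgeR adjusted p = 0.0691), and the adjusted p was 0.0173 when the genes of the selection rule were counted in the adjustment. The Sst-only neurons of these samples held 1381 counts of Nos1 and the other Sst neurons 6. The gene thus entered the test only through the class where it is high, and its p values are descriptions. Of the 1381 counts, 169 lay in 1 cell of sample 2 and 998 in 1 cell of sample 5. Nos1 passed with DESeq2 (adjusted p = 1.17e-12), with no low-count filter (edgeR, 2.18e-10), with no sample block (0.00740) and without sample 4 (0.0209). Without sample 5 the adjusted p was 0.9996 with edgeR, and with positivity at a single count the log2 fold change was 0.53. Nos1 was positive in 7 of 56 Sst-only neurons (12.5%), in 0 of 69 other Sst neurons, which allows a share of up to 4.35%, and in 7.89% of marker-negative neurons. Nos1 belongs to the genes picked after values were seen, as do those of the next paragraph.

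Tac1 had means of 954 and 24.5 CPM in the 2 Sst classes and was higher in 6 of 6 samples (edgeR adjusted p = 0.479). Its values ran from 1.14 to 2233 CPM in Sst-only neurons and from 0 to 79.7 CPM, with a median of 0, in the others. Tac1 was positive in 9 of 56 Sst-only and 3 of 69 other Sst neurons. Its counts in these samples were 4678 and 267, mostly from the class where it is high, so its p values are descriptions. Ncald, for the calcium sensor neurocalcin delta, had means of 217 and 77.1 CPM with no overlap between the classes (edgeR adjusted p = 0.552). Wfs1, which encodes the endoplasmic reticulum protein wolframin, had means of 632 and 1442 CPM and was lower in 6 of 6 samples. The zinc finger gene Tshz2, with means of 225 and 379 CPM, and the granin-like peptide gene Vgf, with means of 131 and 244 CPM, were lower in 6 of 6 samples as well. None of these 5 genes passed with edgeR, and DESeq2 called Tac1, Ncald and Wfs1.

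Gene content was then set against the level of Sst, the gene that defined the cells. The 54 Sst-only neurons with at least 20000 counts were divided by their own Sst level into 11 cells with 1 to 3, 8 cells with 3 to 10 and 35 cells with 10 or more Sst counts per 10000. These bands are ranges of a graded level and not cell types: 8 cells lie between 8 and 12 and 3 between 2.5 and 3.5 counts per 10000. They were drawn after the data were seen, so their values are given with no test. The 3 bands had median gene counts of 172744, 157135 and 110142, so the cells nearest the threshold were the more deeply sequenced.

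In the band of 35 cells, which came from all 9 samples, Pdyn was positive in 26 cells, Cxcl14 in 14, Meis2 in 31, Tshz2 in 22, Camk2n1 in 29 and Pam in 25. In the band of 11 cells nearest the threshold, from 7 samples, Pdyn and Cxcl14 were each positive in 1 cell, Tshz2 in 2, Camk2n1 in 3 and Pam in 3. There Calb1, the gene of the calcium buffer calbindin, was positive in 10 of 11 and Penk in 9 of 11. In the 35 cells Calb1 was positive in 11 and Penk in 21. Nr2f2, an orphan nuclear receptor gene, was positive in 4 of 11, 3 of 8 and 0 of 35 cells, and 0 of 35 allows a share of up to 8.57%. From the lowest to the highest band the means of Gnas were 1739, 2795 and 4117 CPM, and those of Hpca were 953, 677 and 395 CPM. Over the 54 cells the Spearman correlation of Sst with Pdyn was 0.62 and with Gnas 0.51. The cells share samples and the levels share each cell's total, so these are descriptions.

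**Figure D4:**
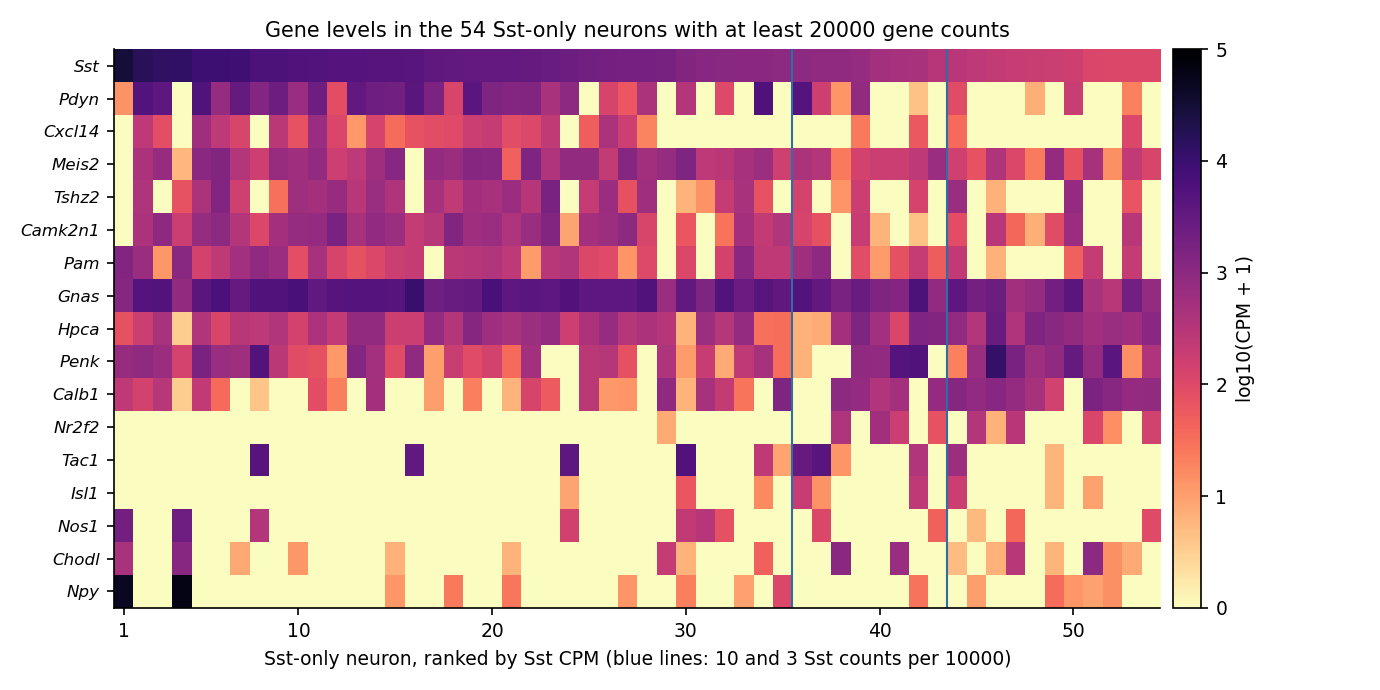
Level of 17 genes (rows) in the 54 Sst-only neurons with at least 20000 gene counts (columns), ranked from the highest Sst level at left, as log10 of CPM plus 1, darker for higher. Blue lines mark 10 and 3 Sst counts per 10000, with 35, 8 and 11 cells from left to right. In the left part Camk2n1 was positive in 29, Pdyn in 26, Tshz2 in 22 and Cxcl14 in 14 of 35 cells. Calb1 was positive in 5 of 8 middle and 10 of 11 right cells, and Nr2f2 in 3 and 4 of these. The cells high in Npy stand at the far left.

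Pairs of genes showed which cells coincide. Pdyn was positive in 30 and Cxcl14 in 15 of the 54 cells, and 12 of the 15 Cxcl14 cells were Pdyn-positive. Tshz2 was positive in 22 of the 30 Pdyn cells and in 5 of the other 24. All 7 Nr2f2-positive cells were positive for Calb1, and 0 of the 7 were positive for Pdyn. Of the 26 Calb1 cells 7 were positive for Pdyn, and 20 were positive for Penk. A total of 21 cells were positive for neither Pdyn nor Cxcl14.

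A set of 9 cells from 5 samples was positive for Tac1, with a median of 3374 CPM. Of these 7 were positive for Pdyn, 4 for Nos1, 3 for the LIM homeobox gene Isl1 and 1 for Calb1, and 0 for Cxcl14. The 3 Isl1-positive cells among the 54 were all in this set. Of the 45 cells without Tac1, 23 were positive for Pdyn, 3 for Nos1, 15 for Cxcl14 and 25 for Calb1.

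Npy was high in 2 of the 54 cells, 1 in sample 2 and 1 in sample 5, at 48510 and 62002 CPM. These 2 cells held 30713 and 13095 CPM of Sst, 2036 and 2288 CPM of Nos1, and 434 and 1128 CPM of Chodl. Sst with Npy, Nos1 and Chodl is a combination known from long-range projecting GABAergic neurons of the cortex. Chodl alone was also positive in 60.2% of Prkcd and 16.5% of marker-negative neurons. Tacr1 was at 48.2 and 75.6 CPM in the 2 cells, below the threshold in both. The 2 cells further held counts of Lhx6 (169 and 25.2 CPM) and Sox6 (229 and 27.5 CPM). Both genes mark neurons born in the medial ganglionic eminence, but only the cell of sample 2 was positive for either. Of the other genes listed for that lineage, Nxph1 was at 0 and 204 CPM, and Nkx2-1 had 0 counts in all 56 cells. Cort was at 0 and 300 CPM. Pdyn, positive in 55.4% of Sst-only neurons, was at 12.05 and 0 CPM in the 2 cells. Meis2, positive in 82.1% of the class, was at 0 and 4.58 CPM. Cxcl14, positive in 26.8% of the class, was at 0 in both. Pam, positive in 55.4%, was at 1362 and 1068 CPM, and it reached 1056 CPM in the other 52 cells. Crhbp, which encodes the binding protein of Crh, was at 699 and 4213 CPM. In the other 52 of the 54 cells Npy was positive in 1 and reached 110 CPM, Lhx6 and Cort were positive in 0, and Meis2 was positive in 45. Sox6 and Nxph1 were each positive in 1 of these 52, Crhbp in 2, Tacr1 in 4, and Chodl and Nos1 each in 5. The 2 cells high in Npy give nearly all the Npy of samples 2 and 5, and they are 2 of the 7 Nos1-positive cells.

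The selection threshold moved which cells belong to the class more than how many. With positivity at 3 counts per 10000, 53 neurons met the rule, of which 44 were among the 56, and their mean share was 6.82%. With positivity at a single count, 61 met it, of which 20 were among the 56, and the mean share was 7.55%. At 3 counts per 10000 edgeR called 12 genes against marker-negative neurons, 10 higher and 2 lower, among them Pdyn, Gnas, Pam, Hpca, Cxcl14, Camk2n1, Meis2, Bcl11b, Sez6, Cstad and Spink8. At a single count 0 genes were called by edgeR and 190 had an unadjusted p under 0.05, with log2 fold changes of 3.11 for Pdyn and 0.72 for Gnas.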

How the data were processed

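The authors deposited unnormalized counts for each cell, in 22601 rows of gene symbols and 91 of ERCC spike-ins, and a table with the animal number, date field and barcode of each cell. Build NCBIM37 and Seurat are named in the submitters' processing notes. No source used here gives the aligner, the annotation, the counting strand or whether molecular identifiers were used. Intervals thus cover counting error only. Every per-cell column was mapped to a sample.

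Spike-ins were left out of all totals. A cell was positive for a gene at 1 count per 10000 or more. No cell was removed for low counts. Sums of counts for each class within a sample, from 3 cells of both classes upward, entered edgeR 4.0.16 in R 4.3.3, with TMM scaling, its filterByExpr filter, a block for the sample and the quasi-likelihood test. Benjamini-Hochberg adjustment ran over all genes tested except the 10 of the selection rule, and genes passed at an adjusted p under 0.05. Levels are CPM of the summed counts, and fold changes are those of the fit. The SE of an edgeR log2 fold change was derived from the test. It is the absolute log2 fold change over the square root of the quasi-likelihood F. Depth was compared by an exact sign-flip permutation over samples. The 95% intervals of shares are exact binomial, and a share of 0 allows up to 3 counts of the total. Counts were thinned to 74000 per cell with seed 7.

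Genes named by rule are passing genes with a mean of at least 10 CPM that moved alike in every sample (up to 12 on each side, and 8 in the second comparison), passing genes of 26 lists (up to 2 and 1 of each), and Sst, Pdyn, Cxcl14, Npy and Penk. All other genes named were picked after their values were seen. Of the 543 list genes 525 matched a row, 2 of them through an older symbol, and 18 were left out. The cells, markers and lists were chosen with earlier results of these data known. One gene called under an alternative threshold is not reported here.

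Both fits were first tested on simulated data, sums with 200 genes changed, 100 each by 2-fold and 4-fold. In the first comparison, with 9618 genes simulated, 2 false calls were made, and in the second, with 8153 genes, 0. Alternatives were DESeq2 1.42.0, limma 3.58.1 on log2(mean CPM + 1), median-of-ratios scaling, no low-count filter, no sample block, at least 5 cells per class, other thresholds, thinned counts, and fits without Mbp-positive cells, without cells below 20000 counts and without each sample in turn. Alternatives chosen after the data were seen left out the Sst-only neurons positive for Npy or Nos1. Others chosen so kept only members with at least 10 Sst counts per 10000 or counted the rule genes in the adjustment. Promoter sequences are from RefSeq (GRCm38.p6), with mouse chromosome 18 left out. Tables were made in Python 3.11.15 with pandas 2.3.3, numpy 2.4.6 and scipy 1.17.1.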

Additional observations from a re-analysis of the deposited data

Results flagged for a closer look

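Of 26 sets of sample values tested for a sample far from the others, 6 had one. Chance gives about 1 in 20 for independent sets of normally distributed values. CPM of sparse genes need not be so distributed, and Sst-only values of the same samples enter both comparisons. The 6 are therefore not read as an excess. The plain measure was the gap to the nearest sample over the whole range.

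In Sst-only neurons Sst was 8206 CPM in sample 2, with the next sample at 4019. Npy was 14170 CPM in sample 5, with the next at 4589, and 1 cell holds nearly all of it. Nos1 was 545 CPM in sample 5, with the next at 192, and the same cell held 2288 CPM. Cxcl14 was 194 CPM in sample 2, with the next of the 6 samples of the second comparison at 74.5.

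In the classes set beside them, Pdyn was 214 CPM in the marker-negative neurons of sample 3, with the next at 109. Npy was 445 CPM in the Sst neurons with Crh, Tac2 or Nts of sample 4, with the next at 19.3. The causes were not tested.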

How the results depend on the processing

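Against marker-negative neurons the 4 genes called became 281 with DESeq2, 7 with no low-count filter, 2 with at least 5 cells per class, 12 with positivity at 3 counts per 10000, 0 at a single count, 10 with limma on mean CPM, and 11 with members of at least 10 Sst counts per 10000 only. Leaving out each replicate in turn gave 2 to 4. Without the replicate block 6 genes were called. Pdyn and Gnas passed in 19 of 20 alternatives each, and their calls were lost with positivity at a single count. Hpca kept its call in 7 of 20 and Pam in 8 of 20, with their directions kept in all 20. Camk2n1 passed in 5 of 20, among them the fit without replicate 6, and Cxcl14 in 2 of 20. Penk passed in 1 of 20, with members of at least 10 Sst counts per 10000 only (log2 fold change -2.78, edgeR adjusted p = 0.000681). Against Sst neurons with Crh, Tac2 or Nts the count of 0 became 70 with DESeq2, 31 with no low-count filter, 3 with no replicate block, 13 with positivity at 3 counts per 10000, 1 with limma and 1 with the rule genes counted in the adjustment. Leaving out each replicate in turn gave 0 to 2, with 1 gene without replicate 2 and 2 genes without replicate 4. There Pdyn passed with no low-count filter and Nos1 in 4 of 15 alternatives. Cxcl14 reversed from -0.59 to 2.56 at 3 counts per 10000. It also reversed to 0.15 without Npy- or Nos1-positive Sst-only neurons and to 0.13 at 10 or more Sst counts. Penk reversed from 0.19 to -0.17 with thinned counts, -0.13 without Npy- or Nos1-positive Sst-only neurons and -1.77 at 10 or more Sst counts. Penk ranged from -0.30 to 0.72 with each replicate left out, at -0.04, -0.08 and -0.30 without replicates 2, 5 and 6. Neither passed in any of these, and the causes were not tested. Median-of-ratios scaling moved the median log2 fold change from -0.33 to -0.27 in the first comparison. With counts thinned to 74000 per cell the calls were 4 and 0, as with all counts. In simulated sums most changes of 2-fold went unseen, and the samples fitted hold 3 to 11 Sst-only neurons each.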

Other observations

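Some genes seen in few Sst-only neurons or at low levels are given as values only, and they were picked after the data were seen. Igfbp4, a binding protein gene of insulin-like growth factors, had 0 counts in the Sst-only neurons of the 7 samples and a mean of 37.6 CPM in marker-negative neurons. With 3 counts in the whole class taken as the floor, Igfbp4 was at least 89.5-fold lower by counts (edgeR adjusted p = 0.374). By cells it was positive in 15 of 266 marker-negative neurons (5.64%), and 0 of 56 Sst-only neurons allows a share of up to 5.36%, so cell shares do not separate the classes. Crtac1 had 1 count in Sst-only and 906 in marker-negative neurons of those 7 samples. Over all 9 samples 1 of 56 and 21 of 266 cells were positive for Crtac1. Lmo3, a LIM-only factor gene, was positive in 83.9% of Sst-only, 65.2% of other Sst, 58.3% of marker-negative and 40.1% of Prkcd neurons. Pcp4, a calmodulin regulator gene, was positive in 67.9%, 97.1%, 33.1% and 3.46% of these classes. Cartpt, a peptide gene, was positive in 61.2% of Prkcd neurons and in 7.14% of Sst-only neurons.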
